A study of Mus musculus with 10 samples.

Results

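The Notch pathway was followed through 37 genes in RNAseq of sorted cells from differentiating mouse embryonic stem cells (mESCs). The genes were chosen by name, with earlier results of these data known. They were 4 receptors, 5 ligands, 9 Hes and Hey factors, 3 Fringe enzymes and 4 Deltex proteins. The rest were 4 genes of the nuclear complex, 3 feedback and trafficking regulators and 5 genes of receptor-cleaving proteases. All 37 were found among the 38924 gene identifiers of the count tables. Every sample came from a single line, Foxa2-hCD4, in which the Foxa2 locus also makes a truncated human CD4 that can be stained on living cells. Foxa2+ CM (cardiac mesoderm, n = 3) was sorted at day 5 as Kdr+ Pdgfra+ hCD4+, and Foxa2− CM (n = 3) as Kdr+ Pdgfra+ hCD4−, from embryoid bodies given VEGF (5 ng/ml), Activin A (8 ng/ml) and BMP4 (1 ng/ml) from day 2. The samples labelled Flk1+ high (n = 2) were Kdr+ cells of the haematopoietic mesoderm from the cardiac cultures, Flk1 being another name of Kdr, and the endoderm samples (n = 2) were hCD4+ cells from embryoid bodies given Activin A alone (75 ng/ml). Because hCD4 is a protein made from the Foxa2 locus, the sort follows its presence at the cell surface and not the Foxa2 RNA of the moment.

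Notch signalling runs between touching cells. Delta and Jagged ligands (Dll1, Dll4, Jag1, Jag2) on a neighbour pull on a Notch receptor, the ADAM proteases and then the γ-secretase complex cut the receptor, and the freed intracellular part joins the DNA-binding protein Rbpj and a Mastermind coactivator to switch on target genes, among them Hes and Hey repressors and Nrarp. In the early embryo the pathway is known for segmentation of the paraxial mesoderm, for arterial and blood cell fates, and for patterning of the heart, where Hey2 is a gene of the compact ventricular wall.

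The libraries held 10926284 to 17470126 counts on genes, so that 3 counts corresponded to 0.172 to 0.275 CPM (counts scaled to a common library size, with TMM normalisation). Foxa2 itself was at 20.03, 16.0 and 3.50 CPM in Foxa2+ CM, whereas the Foxa2− CM samples held 0.873 to 2.54 CPM. It was at 183 and 186 CPM in endoderm and under 1 CPM in Flk1+ high. Marker lists were then summed in each library. The cardiac mesoderm list includes Kdr and Pdgfra and the endoderm list Foxa2, on which the cells were sorted, so these sums do not check the gates independently. Kdr alone gave 554.5 and 592.7 CPM of the cardiac sums of Flk1+ high below. Of the endoderm list, Hhex was at 114 and 130 CPM in Flk1+ high against 64.0 and 98.0 CPM in endoderm, and Cxcr4 was at 79.2 to 117 CPM in CM. Summed over 8 genes, endoderm markers were at 1380 to 1497 CPM in endoderm and 184 to 202 CPM elsewhere, and 12 endothelial and haemangioblast markers were at 1448 to 1978 CPM in Flk1+ high, 249 to 484.5 CPM in CM and 23.3 to 37.0 CPM in endoderm. Emcn was at or near 0 in every library. Blood markers (8 genes) were at 499 to 534 CPM in Flk1+ high and 26.7 to 182.5 CPM elsewhere. Cardiac mesoderm markers (8) were at 1050 to 1223 CPM in Foxa2+ CM and 1290 to 1431 CPM in Foxa2− CM. Their sums were 744 to 941.5 CPM in Flk1+ high and 131 to 219 CPM in endoderm. Epiblast markers (6) were at 665 to 687 CPM in endoderm and 43.0 to 138 CPM elsewhere, and neural markers (6) under 5 CPM throughout. Replicate 3 of Foxa2− CM stood apart, with the endothelial cadherin Cdh5 at 43.4 CPM against 2.85 and 1.98 CPM in replicates 1 and 2. Foxa2+ CM replicate 3 shifted the same way by less, with Cdh5 at 13.6 CPM against 4.53 and 7.81 CPM. Its endothelial marker sum was 442 CPM against 351 and 342 CPM. The 2 Flk1+ high libraries differed from each other more than any other pair of replicates (chi-square per degree of freedom 21.5, against 3.72 to 13.2). In such bulk samples, fewer cells of a type and less RNA per cell cannot be told apart.

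All 4 receptors were expressed in every population, and per length their order was the same in each. Notch3 had the highest level in RPKM (the same CPM per kilobase of exon), with group means of 68.1 in Foxa2+ CM, 62.2 in Foxa2− CM, 50.6 in endoderm and 46.6 in Flk1+ high. Notch2 followed at 16.1 to 25.7 RPKM, Notch1 at 3.37 to 20.4 RPKM and Notch4 at 0.559 to 1.76 RPKM. Of the receptor RPKM summed within a library, Notch1 made up 5.37 to 7.01% in Foxa2+ CM, 6.21 to 7.58% in Foxa2− CM, 4.05 and 5.62% in endoderm, and 17.5 and 27.2% in Flk1+ high. Notch3 counts reached 1.27 reads per exonic base in the densest library. As the authors removed duplicates, a single-end library can keep at most 2 reads per base, so differences in Notch3 may be compressed. It was 1 of 9 members above 0.5 reads per exonic base in their densest library. Dtx3 (0.937), Hes1 (0.817), Numb (0.631), Adam10 (0.604) and Jag1 (0.552) were others, and the same limit applies to them.

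Ligand RNA was less abundant per length than receptor RNA in all 10 libraries, and its amount spanned a wider range. The 5 ligands summed to 5.19, 6.06 and 5.66 RPKM in Foxa2+ CM, to 18.5, 15.8 and 11.1 RPKM in Foxa2− CM, to 50.2 and 66.9 RPKM in endoderm and to 15.5 and 8.37 RPKM in Flk1+ high. The make-up differed as well. Jag1 was 63.2 and 69.0% of the endoderm ligand RPKM, whereas Dll4 was 15.8 and 39.1% of that in Flk1+ high and no more than 6.21% in any other library.

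**Figure D1:**
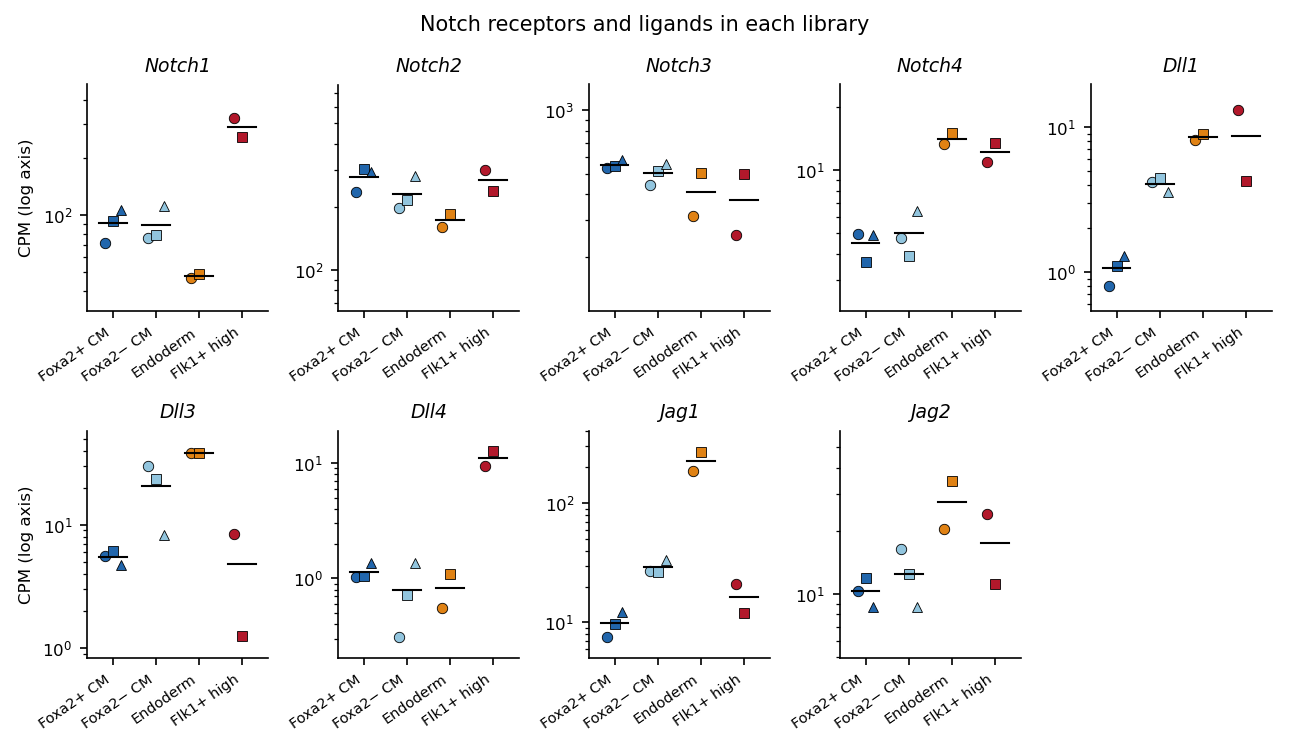
CPM (log axis) of the 4 Notch receptors and 5 ligands in each library of Foxa2+ CM, Foxa2− CM, endoderm and Flk1+ high. Circles, squares and triangles are replicates 1, 2 and 3 and the line is the group mean; Dll1, Dll3 and Jag1 sit lower in the 3 Foxa2+ CM samples than in the 3 Foxa2− CM samples, Jag1 is at 185 and 269 CPM in endoderm, and Dll4 and Notch1 are highest in Flk1+ high.

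The first comparison asks which pathway genes separate Foxa2+ CM from Foxa2− CM, cells of the same protocol and the same Kdr and Pdgfra gate. The ligands Dll1, Dll3 and Jag1 were lower in Foxa2+ CM, and 5 genes of receptor cleavage, receptor trafficking and the nuclear complex were higher. No receptor and no Hes or Hey factor passed the unpaired test, though Hey2 did with the replicate number as a block. Of the 33 members with enough counts to be tested, 8 were called at an adjusted p under 0.05 (edgeR, quasi-likelihood), or 24.2%, against 6.48% of the 15284 genes tested. Over all genes 3.81% were called higher and 2.66% lower. A call with at least a 2-fold difference was made for 5 of the 33 tested members, against 3.01% of all genes tested. Among called genes alone, 5 of 8 members stand beside 460 of 990 genes. The median absolute log2 fold change was 0.26 over the members and 0.11 over all genes. As the members were chosen with earlier results of these data known, such shares describe the list and do not test it. Nothing in the labels says that the samples came from separate cultures, so the p-values measure the spread between these samples, which may be technical.

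Dll1, a ligand of somite and vessel development, was at 0.804, 1.10 and 1.297 CPM in Foxa2+ CM and at 4.15, 4.45 and 3.56 CPM in Foxa2− CM. The groups did not overlap, and the Foxa2+ CM values rested on 11 to 23 counts each. The log2 fold change was −1.90 (SE 0.24, adjusted p = 0.00498, edgeR), a 3.72-fold difference. Part of the Dll1 exons (20.5%) lies under the antisense gene A930024N18Rik, and the kit does not mark strand.

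Jag1, a ligand known from the outflow tract and the vessel wall, was at 7.60, 9.66 and 12.2 CPM in Foxa2+ CM. In Foxa2− CM it was at 27.1, 26.3 and 33.5 CPM, above every Foxa2+ CM sample. The log2 fold change was −1.55 (SE 0.19, adjusted p = 0.00476, edgeR).

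Dll3 differs from the other ligands in acting inside the cell that makes it, where it dampens Notch signalling. It was at 5.56, 6.13 and 4.74 CPM in Foxa2+ CM and at 29.7, 23.6 and 8.24 CPM in Foxa2− CM, where replicate 3 lay near the Foxa2+ CM values without overlapping them. The log2 fold change of −1.89 (SE 0.42, adjusted p = 0.0372, edgeR) lost its call in 5 of the 6 fits that left out a sample (adjusted p up to 0.149). Without Foxa2− CM replicate 3 it was −2.27 (adjusted p = 7.94e-05). The remaining ligands, Dll4 (0.310 to 1.35 CPM) and Jag2 (8.63 to 16.4 CPM), overlapped between the CM groups and were not called.

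Dll1, Dll3 and the Fringe enzyme Lfng are also genes of the paraxial mesoderm, and markers of that tissue were measured beside them. Of 8 paraxial markers 6 were tested, of which Tbx6, Mesp2 and Pcdh8 were lower in Foxa2+ CM and none was called higher. Meox1, the most abundant of the list in Foxa2+ CM, lay the other way, at 16.6, 24.2 and 20.8 CPM against 5.88, 7.54 and 14.7 CPM, and was not called (1.12, adjusted p = 0.0963). Tbx6 was at 6.29, 7.23 and 6.32 CPM in Foxa2+ CM and at 19.4, 15.1 and 9.54 CPM in Foxa2− CM. The defining markers Msgn1 (0 to 13 counts in CM) and Ripply2 (0 to 3 counts) were at or near 0, and the summed list ranged over 26.8 to 35.7 CPM for Foxa2+ CM and 31.3 to 37.0 CPM for Foxa2− CM. Of 6 epiblast markers, Nanog and Sox2 were also lower in Foxa2+ CM, at 4.97 to 6.49 CPM against 23.5 to 35.9 CPM for Nanog. Fgf5 and Dppa4 lay above Foxa2− CM in all Foxa2+ CM samples and were not called (1.30, adjusted p = 0.0709, and 0.95, adjusted p = 0.192). Of 8 cardiac mesoderm markers, Mesp1, Isl1 and Hand1 were called lower in Foxa2+ CM and Nkx2-5 higher. Mesp1 was at 3.72 to 7.06 CPM in Foxa2+ CM and at 61.98, 62.95 and 23.19 CPM in Foxa2− CM. Within Foxa2− CM, Mesp1 was lowest in replicate 3, like Dll3, whereas Isl1 was highest there (26.6 CPM). Group means were 3.22 against 21.05 CPM for Isl1, 79.3 against 163.9 CPM for Hand1 and 24.7 against 11.45 CPM for Nkx2-5. The part of cells marked by any of these lists in the ligand differences was not tested.

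The receptors overlapped between the CM groups. Notch1 was at 71.3, 93.6 and 106.6 CPM in Foxa2+ CM and at 75.7, 79.1 and 111 CPM in Foxa2− CM, with replicate 3 the highest of each group (log2 fold change 0.03, SE 0.19, adjusted p = 0.968). Notch2 was at 235, 304 and 292 CPM and at 198, 215 and 279.7 CPM (0.26, SE 0.15, adjusted p = 0.415), and passed the test without Foxa2− CM replicate 3 (0.43, adjusted p = 0.032). Notch3 was at 532, 541 and 579.5 CPM and at 443, 513 and 554 CPM (0.13, SE 0.10, adjusted p = 0.576).
Notch4, mainly a receptor of endothelium, stayed at 3.65 to 6.38 CPM in all 6 CM samples (adjusted p = 0.837).

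Hes1, the most abundant Hes factor, was at 105, 92.8 and 84.0 CPM in Foxa2+ CM and at 103, 120.2 and 86.6 CPM in Foxa2− CM. The groups overlapped (log2 fold change −0.13, SE 0.13, adjusted p = 0.711, edgeR). Hey1 was at 94.9, 97.3 and 85.3 CPM against 103.5, 116 and 87.0 CPM, again overlapping (−0.14, SE 0.10, adjusted p = 0.585). Nrarp, a feedback inhibitor induced by Notch, varied less than either, between 49.9 and 56.5 CPM over the 6 samples (0.02, SE 0.06, adjusted p = 0.943). Most of the Nrarp exons (79.4%) lie under an antisense gene, and as the kit does not mark strand its reads may be included.

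Hey2 was at 5.41, 7.29 and 11.8 CPM in Foxa2+ CM and at 8.55, 12.2 and 21.3 CPM in Foxa2− CM. The ranges overlapped (log2 fold change −0.78, SE 0.39, adjusted p = 0.342). At each replicate number Hey2 was lower in Foxa2+ CM. With that number as a block it was called lower (−0.76, SE 0.13, adjusted p = 0.00179, edgeR). Without replicate 3 of both groups the call changed too (−0.67, adjusted p = 0.0136). Replicate 3 of each group also had the highest sums of endothelial markers, 442 CPM for Foxa2+ CM and 484.5 CPM for Foxa2− CM. In replicates 1 and 2 these sums were higher in Foxa2+ CM (351 and 342 CPM) than in Foxa2− CM (249 and 250 CPM), opposite in direction to Hey2. The part of endothelial cells in the Hey2 values was not tested. Hes6 (28.2 to 37.4 CPM) and Hes7 (0.743 to 2.55 CPM) overlapped and were not called.

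In the nuclear complex, Maml2, a Mastermind coactivator, was at 7.82, 12.1 and 7.78 CPM in Foxa2+ CM and at 1.73, 2.70 and 3.33 CPM in Foxa2− CM. All Foxa2+ CM samples lay above all Foxa2− CM samples (log2 fold change 1.83, SE 0.29, adjusted p = 0.0119, edgeR). The call was lost without Foxa2+ CM replicate 2 (adjusted p = 0.0598) and without Foxa2− CM replicate 2 (0.071), the sizes being 1.57 and 1.85. Its relative Maml3 was at 52.9, 66.0 and 59.5 CPM against 26.01, 26.5 and 44.5 CPM, which do not overlap either, and narrowly missed the threshold (0.87, SE 0.21, adjusted p = 0.0501). Maml3 was called higher with the replicate number as a block. Rbpj, the DNA-binding partner, was at 69.5, 69.4 and 62.7 CPM against 54.3, 56.0 and 50.1 CPM, a small non-overlapping rise of 0.33 on the log2 scale (SE 0.07, adjusted p = 0.0328). Maml1 was at 157 to 172 CPM in all 6 samples and was not called.

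Among the proteases, Psen2, a catalytic subunit of γ-secretase, was at 42.7, 45.6 and 47.2 CPM in Foxa2+ CM and at 15.5, 12.3 and 21.8 CPM in Foxa2− CM. The gap between the groups was wider than the spread within either, and the log2 fold change was 1.44 (SE 0.19, adjusted p = 0.00627, edgeR). The other measured subunits did not follow it, as Ncstn was at 132 to 148 CPM and Psenen at 3.89 to 4.46 CPM over the CM samples, neither called. Adam10, which makes the first cut of a ligand-bound receptor, was at 157, 172 and 159.6 CPM against 117, 132 and 136 CPM (0.34, SE 0.08, adjusted p = 0.0377), without overlap. Adam17 (123 to 141 CPM) was not called.

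Numb, an adaptor that sends Notch to the endosome and so lowers signalling, was at 143.5, 140.6 and 139.4 CPM in Foxa2+ CM and at 109, 101 and 117 CPM in Foxa2− CM. It was higher in all Foxa2+ CM samples by 0.38 on the log2 scale (SE 0.07, adjusted p = 0.0198, edgeR), whereas Numbl (25.6 to 38.2 CPM) overlapped. Of the Fringe enzymes, which add sugars that tune a receptor to Delta or Jagged, Lfng was at 1.61, 1.62 and 2.37 CPM against 5.51, 3.49 and 3.39 CPM (−1.14, SE 0.28, adjusted p = 0.0515). Mfng was at 1.90, 2.37 and 2.03 CPM against 1.05, 0.318 and 1.47 CPM (1.10, SE 0.42, adjusted p = 0.193). Neither Fringe passed, though both sets of values were apart and Lfng was called lower with the replicate number as a block. Rfng (42.9 to 51.6 CPM) overlapped. The Deltex genes were not called, with Dtx1 at 0.318 to 1.75 CPM, Dtx2 at 69.2 to 77.8 CPM, Dtx3 at 134 to 151 CPM and Dtx4 at 2.48 to 4.06 CPM.

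**Figure D2:**
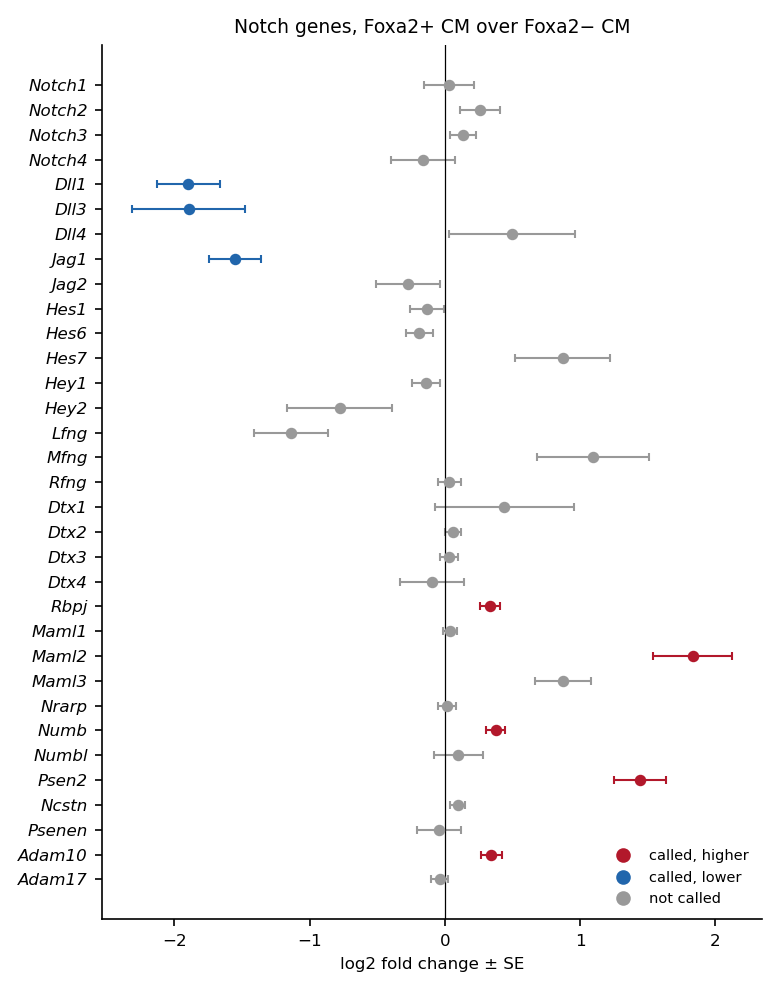
Log2 fold change of Foxa2+ CM over Foxa2− CM with its SE (edgeR, 3 samples a group) for the 33 tested members, in order of role. Blue points are called lower (Dll1, Dll3, Jag1), red points higher (Rbpj, Maml2, Numb, Psen2, Adam10) and grey points not called; the receptors, Hes1, Hey1 and Nrarp lie near 0.

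Over all tested members, 12 of 33 had values that did not overlap between the CM groups, against 24% of all genes tested. The calls of Jag1 and Psen2 were made under each alternative that was run, and that of Dll1 under each except the model of all 10 samples (adjusted p = 0.0543). Rbpj and Numb kept their calls in 2 of the 6 fits that left out a sample, and Adam10 in 1 of them, with adjusted p up to 0.177, 0.101 and 0.198. The count of 8 fell to 3 in that model and to 3 or 4 when replicate 1 or 2 of either group was left out (3 without Foxa2+ CM replicate 2 or Foxa2− CM replicate 2, 4 without replicate 1 of either), and was 12 without Foxa2− CM replicate 3 and 14 without replicate 3 of both groups. The count over all genes moved with it, from 990 to 288 in the model of all 10 samples, to 234 to 414 without replicate 1 or 2 of either group, and to 1701 and 2632 in the fits with 12 and 14. The 14 included the 8, and Hey2 and Lfng among the lower and Notch2, Hes7, Mfng and Maml3 among the higher.

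RefSeq gave promoter sequence (250 bases before to 50 after a start) for 29 of the 37 members, in 37 windows on GRCm38.p6. The letters GTGGGAA, the core that Rbpj binds, were searched on both strands and occurred in 6.38% of all 32851 windows and in 5 of the 37 member windows (13.5%), those of Hey2, Lfng, Psen2, Hes5 and Hes7. The forkhead core TGTTTAC was in 3.65% of all windows and in 2 member windows (5.41%), those of Maml2 and Maml3. The overlap of these motifs with others was not examined, and a match is a description of letters, not a site of binding. Upstream stretches are shown for the Rbpj core in the 3 members whose RNA differed between the sorted groups and for the forkhead core in Maml2, since Foxa2 is a forkhead factor. Each is written 5′ to 3′ on the strand of the gene with the match in capitals, in the reverse complement form TTCCCAC for Hey2 and Psen2.
Hey2, chr10:30842958-30843017, minus strand: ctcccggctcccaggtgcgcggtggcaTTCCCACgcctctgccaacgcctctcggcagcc
Lfng, chr5:140607205-140607264, plus strand: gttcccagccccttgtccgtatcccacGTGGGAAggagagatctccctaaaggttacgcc
Psen2, chr1:180246007-180246066, minus strand: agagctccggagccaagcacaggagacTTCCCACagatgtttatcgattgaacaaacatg
Maml2, chr9:13297708-13297765, plus strand: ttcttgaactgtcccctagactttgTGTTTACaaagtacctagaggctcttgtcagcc
The matches begin 207 bases before the start for Hey2, 109 for Lfng, 89 for Psen2 and 225 for Maml2. Hey2 has a further GTGGGAA that begins 4 bases before its start, and the Psen2 match lies in the window of its downstream start.

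**Figure D3:**
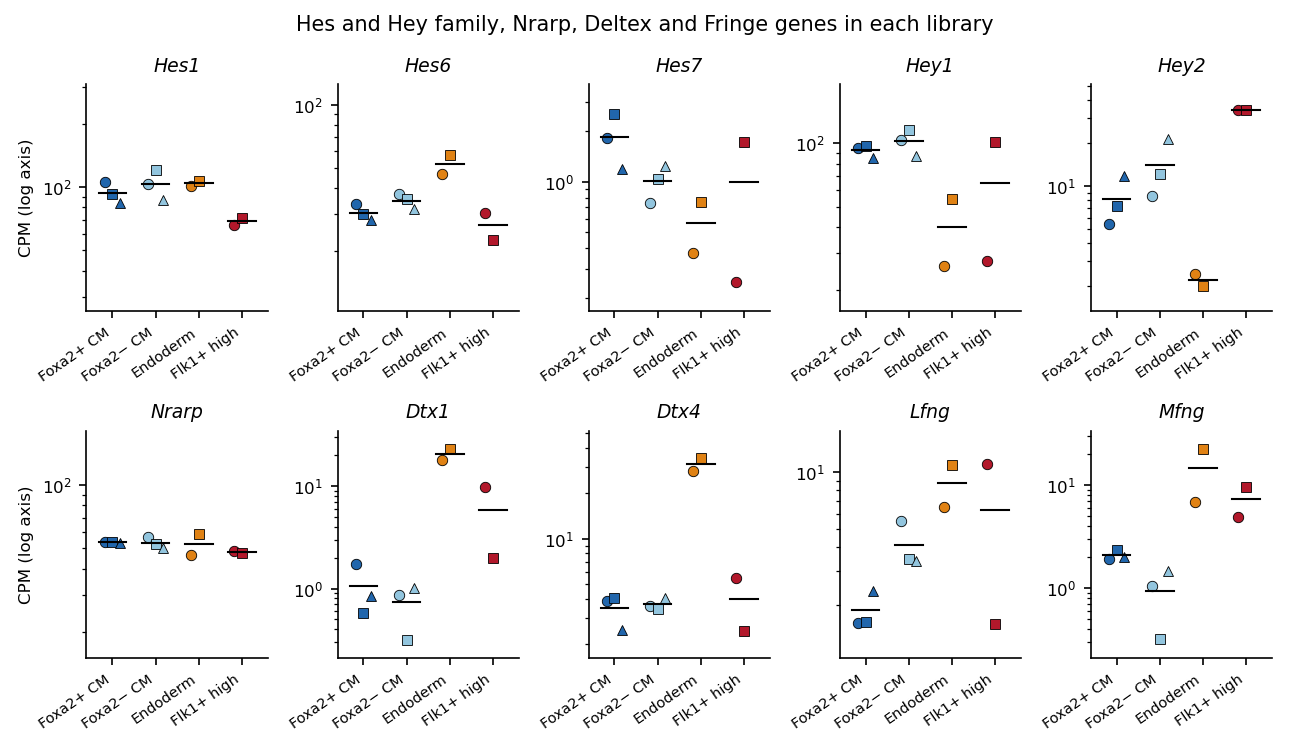
CPM (log axis) of Hes1, Hes6, Hes7, Hey1, Hey2, Nrarp, Dtx1, Dtx4, Lfng and Mfng in each library, with circles, squares and triangles for replicates 1, 2 and 3 and a line at the group mean. Hey2 runs from 2.01 CPM in endoderm to 34.1 CPM in Flk1+ high, Dtx1 and Dtx4 are highest in the 2 endoderm samples, and Nrarp stays between 46.7 and 58.4 CPM.

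The second comparison sets endoderm against the mean of both CM groups, in a model of all 10 samples. Endoderm had more of 4 of the 5 ligands and of several modifiers, and less Hey1, Hey2, Notch1 and Notch2. Of the 33 tested members, 18 were called (11 higher, 7 lower; 54.5%), against 37.2% of the 16180 genes tested (20% higher, 17.3% lower). A call with at least a 2-fold difference was made for 12 of the 33, against 18.9% of all genes. The values of 17 of the 33 did not overlap, against 48.7% of all genes. The median absolute log2 fold change was 0.55 over the members and 0.31 over all genes. This and the following comparisons share samples and are not independent of each other.

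Jag1 was at 185 and 269 CPM in endoderm, against 7.60 to 33.5 CPM over the 6 CM samples. The gap was 13.4-fold on average (log2 fold change 3.74, SE 0.21, adjusted p = 2e-06, edgeR), and against each CM group alone it was 22.9-fold over Foxa2+ CM and 7.83-fold over Foxa2− CM. Dll3 was at 38.4 and 38.1 CPM (1.85, SE 0.51, adjusted p = 0.0189), and against Foxa2− CM alone the difference was 0.90 and not called (adjusted p = 0.29). Dll1, at 8.11 and 8.95 CPM, was above all CM samples (2.03, SE 0.35, adjusted p = 0.00164), and against Foxa2− CM alone the value was 1.08 (adjusted p = 0.0708). Jag2, at 20.3 and 34.5 CPM, was 2.42-fold higher (adjusted p = 0.0109), whereas Dll4, at 0.559 and 1.09 CPM, overlapped with CM. The call of Dll3 was lost without either endoderm sample (adjusted p = 0.0964 without replicate 1 and 0.0832 without replicate 2). Of 6 epiblast markers, 5 were higher and 1 lower in endoderm. Of 8 paraxial markers 7 were tested, 2 being higher and 2 lower, and the summed list was at 81.8 and 162 CPM in endoderm, of which Pcdh8 made up 68.9 and 150.5 CPM. Their part in the ligand values was not tested.

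Deltex proteins are ubiquitin ligases that act on Notch in the endosome. Dtx1 was at 17.9 and 23.1 CPM in endoderm and at most 1.75 CPM in CM, the largest difference of any member in this comparison (4.52, SE 0.52, adjusted p = 0.000158, edgeR). Dtx4 was at 28.0 and 34.5 CPM, against 2.48 to 4.06 CPM in CM (3.13, SE 0.26, adjusted p = 2.3e-05). Mfng was at 6.90 and 22.4 CPM, above CM in both samples despite a wide spread between them (3.35, SE 0.46, adjusted p = 0.000448). Lfng, at 6.52 and 10.96 CPM, was higher by 1.65 (SE 0.53, adjusted p = 0.0348), and the call was lost in 6 of 10 fits without a sample (highest adjusted p 0.253, without endoderm replicate 2). Maml2, at 11.8 and 13.1 CPM, was called higher (1.35, SE 0.26, adjusted p = 0.00331) than the CM mean, and from Foxa2+ CM alone it differed by 0.43 (adjusted p = 0.299).

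Notch1 was at 47.1 and 48.9 CPM, below all 6 CM samples (−0.90, SE 0.19, adjusted p = 0.00536, edgeR, and 0.0578 without endoderm replicate 1). Notch2, at 161 and 185 CPM, was also below them (−0.55, SE 0.16, adjusted p = 0.0213), a call lost without either endoderm sample (adjusted p = 0.171 without replicate 1 and 0.0669 without replicate 2). Notch4 was at 13.3 and 15.0 CPM, above them (1.57, SE 0.21, adjusted p = 0.00035). Notch3, at 315 and 504 CPM, overlapped with CM and was not called (−0.36, SE 0.24, adjusted p = 0.267). The receptors thus moved in different directions, on a receptor sum of 58.8 and 84.8 RPKM in endoderm against 79.0 to 106.9 RPKM in CM.

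Hey2 was at 2.42 and 2.01 CPM in endoderm, below every CM sample (−2.27, SE 0.44, adjusted p = 0.00331, edgeR). Hey1 was at 26.2 and 54.1 CPM, also below CM, with a wide gap between the 2 samples (−1.27, SE 0.44, adjusted p = 0.0463). The Hey1 call was made in 3 of 10 fits without a sample (−0.87, adjusted p = 0.294 without endoderm replicate 1). Hes6, a Hes factor that opposes Hes1, was at 46.5 and 57.3 CPM and was 1.59-fold higher (adjusted p = 0.00401). Hes1, at 101.5 and 107 CPM (0.08, SE 0.12, adjusted p = 0.627), and Nrarp, at 46.7 and 58.4 CPM (−0.02, SE 0.09, adjusted p = 0.913), overlapped with CM. The endothelial marker sum was also lower in endoderm (given above), and its part in the Notch1 and Hey2 values was not tested.

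Small differences completed the called members. Psen2 (15.3 and 19.8 CPM) was 1.56-fold below the CM mean but overlapped with Foxa2− CM, Rfng (35.9 and 41.2 CPM) was 1.23-fold lower, and Adam10 (117 and 125.5 CPM) was 1.19-fold lower and within the Foxa2− CM range. Hes7, Dtx2, Dtx3, Rbpj, Maml1, Maml3, Numb, Numbl, Ncstn, Psenen and Adam17 were not called, with log2 fold changes of −1.25 for Hes7 and between −0.23 and 0.46 for the rest. The count of 18 fell to 10 without endoderm replicate 1 and to 11 without replicate 2, while the count over all genes fell from 6022 to 3684 and 4250. Psen2 and Adam10 lost their calls without either endoderm sample and without Foxa2+ CM replicate 2 or 3, and Adam10 also without Foxa2− CM replicate 2 or 3. Rfng lost its call without endoderm replicate 1, Foxa2+ CM replicate 2 or Foxa2− CM replicate 1 or 3. Jag2 and Hes6 lost theirs without endoderm replicate 2. With the replicate number as a block Rfng and Psen2 were not called. With Foxa2+ CM alone as the reference the count of called members was 17, against 35% of all genes. With Foxa2− CM alone it was 11, against 30.1%, and both references were chosen after the data were seen. Against Foxa2− CM alone Notch2, Hey1, Lfng, Rfng, Psen2 and Adam10 were also not called, and against Foxa2+ CM alone Hey1 was not.

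The third comparison sets Flk1+ high against the mean of both CM groups. Flk1+ high cells had more Notch1, Notch4, Dll4, Dll1, Hey2 and Mfng, and slightly less Hes1. Of the 33 tested members, 15 were called (10 higher, 5 lower; 45.5%), against 25.7% of the 16180 genes tested (13.7% higher, 12% lower). A call with at least a 2-fold difference was made for 8 of the 33, against 11.9% of all genes tested. Among called genes alone, 8 of 15 members stand beside 1930 of 4157 genes. The values of 13 of the 33 did not overlap, against 35.4% of all genes, and the median absolute log2 fold change was 0.35, against 0.25.

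Dll4, the Delta ligand of arterial and sprouting endothelium, was at 9.47 and 12.6 CPM in Flk1+ high and at 0.310 to 1.35 CPM in CM. Both samples were far above CM, by 11.4-fold (log2 fold change 3.51, SE 0.36, adjusted p = 0.000204, edgeR). Notch1 was at 323 and 258 CPM, more than double the highest CM sample (1.70, SE 0.16, adjusted p = 0.000165). Notch4, at 10.9 and 13.5 CPM, was 2.56-fold higher (adjusted p = 0.00156). Hey2 was at 34.1 and 33.9 CPM, above the 21.3 CPM of the highest CM sample (1.67, SE 0.32, adjusted p = 0.00492). Notch1, Notch4, Dll4 and Hey2 were also called higher against each CM group alone and without each sample in turn.

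The same libraries held 1448 and 1978 CPM of endothelial and haemangioblast markers, of which 10 of 11 tested were called higher, and 499 to 534 CPM of blood markers, of which all 6 tested were. The Foxa2− CM sample with the most of these endothelial markers, replicate 3, had the highest Hey2 and Notch1 of the 6 CM samples, and its Dll4 level of 1.35 CPM was equalled by Foxa2+ CM replicate 3. How far these cells carry the Notch values was not tested.

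Dll1 was at 13.1 and 4.25 CPM, and the lower of these overlapped with Foxa2− CM (2.06, SE 0.34, adjusted p = 0.00235, edgeR). The value was halved, at 1.03, without Flk1+ high replicate 1, and against Foxa2− CM alone it was not called (adjusted p = 0.0765). Mfng, at 4.96 and 9.61 CPM, was 5.03-fold higher (adjusted p = 0.00664, and 0.0745 without Flk1+ high replicate 2). Dtx1 was at 9.79 and 1.97 CPM (2.74, SE 0.55, adjusted p = 0.00588), and without Flk1+ high replicate 1 the difference was 1.15 and not called (adjusted p = 0.173). Maml2, at 13.6 and 9.45 CPM, was higher by 1.24 (adjusted p = 0.00767), a call lost without Flk1+ high replicate 1 (0.95, adjusted p = 0.065). From Foxa2+ CM alone it differed by 0.32 (adjusted p = 0.485).

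Hes1 was at 65.8 and 71.6 CPM in Flk1+ high, below all 6 CM samples and opposite in direction to Hey2 (−0.52, SE 0.13, adjusted p = 0.0144, edgeR). The call was lost without Flk1+ high replicate 1 (−0.46, adjusted p = 0.0841). Hey1 was at 27.6 and 101.6 CPM, so that replicate 1 lay far below CM and replicate 2 within it (−0.60, SE 0.41, adjusted p = 0.33). Without replicate 2 the difference was −1.84 (adjusted p = 0.0051), and without replicate 1 it was 0.07 (adjusted p = 0.886). Notch3 showed the same order, at 254 and 499 CPM (−0.49, SE 0.24, adjusted p = 0.177), with −1.08 (adjusted p = 0.0116) without replicate 2.

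Notch2, at 301 and 238 CPM (0.09, SE 0.15, adjusted p = 0.702), and Nrarp, at 48.3 and 47.5 CPM (−0.15, SE 0.09, adjusted p = 0.281), were not called. Adam10, at 175.5 and 208 CPM, was 1.33-fold above the CM mean (adjusted p = 0.00576), a call lost against Foxa2+ CM alone (adjusted p = 0.0964) and without Flk1+ high replicate 2 (adjusted p = 0.113, log2 fold change 0.26). The remaining called members changed by at most 0.35 on the log2 scale, Adam17 higher (1.17-fold) and Rfng, Dtx3, Rbpj and Dtx2 lower (1.28-fold, 1.25-fold, 1.23-fold and 1.22-fold). Of these, Dtx3 was also called against each CM group alone and without each sample in turn. Rbpj, at 47.2 and 50.7 CPM, overlapped with Foxa2− CM and was not called against it alone (−0.13, adjusted p = 0.352), nor without Flk1+ high replicate 1 or Foxa2+ CM replicate 2. Against Foxa2− CM alone Rfng, Dtx2 and Adam17 were not called either (adjusted p = 0.052, 0.0687 and 0.0723). Rfng also lost its call without either Flk1+ high sample, and Dtx2 without Flk1+ high replicate 2 or Foxa2+ CM replicate 2 or 3. Adam17 kept its call only without Flk1+ high replicate 1 or replicate 3 of either CM group, among the fits that left out a sample. Dll3 (8.41 and 1.26 CPM), Jag1 (20.8 and 11.9 CPM), Jag2, Hes6, Hes7, Lfng (10.98 and 1.58 CPM), Dtx4, Maml1, Maml3, Numb, Numbl, Psen2, Ncstn and Psenen were not called. With Foxa2+ CM alone as the reference 13 members were called, against 22.8% of all genes, and with Foxa2− CM alone 11, against 21.6%.

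The fourth comparison sets the 2 smaller groups against each other. Endoderm held more Jag1 and Dll3, and Flk1+ high more Dll4, Notch1 and Notch2, whereas Notch3, Notch4, Dll1 and Jag2 were not called. Of the 33 tested members, 13 were called (7 higher and 6 lower in endoderm; 39.4%), against 32.6% of the 16180 genes tested (16.4% higher, 16.2% lower), and 18 had values that did not overlap, against 62.6% of all genes, as is easily met with 2 samples a group. The share of calls was close to that over all genes.

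Lower in endoderm were Hey2 by 15.4-fold (log2 fold change −3.94, SE 0.50, adjusted p = 0.000406, edgeR), Dll4 by 13.1-fold and Notch1 by 6.05-fold. Higher in endoderm were Jag1 by 13.8-fold (3.78, SE 0.31, adjusted p = 4.1e-05), Dtx4 by 7.76-fold and Dll3 by 7.74-fold. These 6 members differed at least 2-fold, against 19.1% of all genes. Without Flk1+ high replicate 1 the Dll3 difference was 4.91 on the log2 scale and without replicate 2 it was 2.18, against 2.95 with both, and that of Dtx4 was 3.67 without replicate 1, against 2.96. When the 4 samples were fitted alone Dll3 (adjusted p = 0.0697), Rbpj and Dtx3 lost their calls, and 2675 in place of 5276 genes were called in all. Smaller differences were called for Hes6 (1.95-fold higher in endoderm), Hes1 (1.52-fold), Rbpj (1.29-fold) and Dtx3 (1.21-fold), and for Psen2 (1.91-fold lower), Adam10 (1.58-fold) and Notch2 (1.56-fold). Hes1 missed the threshold without endoderm replicate 2 (adjusted p = 0.0503) or Flk1+ high replicate 1 (0.0569), Psen2 without endoderm replicate 1 (0.107), Rbpj without endoderm replicate 2 or Flk1+ high replicate 1, Dtx3 without endoderm replicate 1 or either Flk1+ high sample, and Notch2 without either endoderm sample or Flk1+ high replicate 1 (0.0725 to 0.157). Notch3, Notch4, Hey1 and Nrarp were not called, their log2 fold changes being 0.12, 0.22, −0.68 and 0.13 (adjusted p = 0.786, 0.579, 0.347 and 0.415). Without Flk1+ high replicate 1 the Hey1 difference was −1.34 (adjusted p = 0.0107). The other 16 uncalled members had log2 fold changes from −0.73 (Hes7) to 1.79 (Dtx1, adjusted p = 0.0668).

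**Figure D4:**
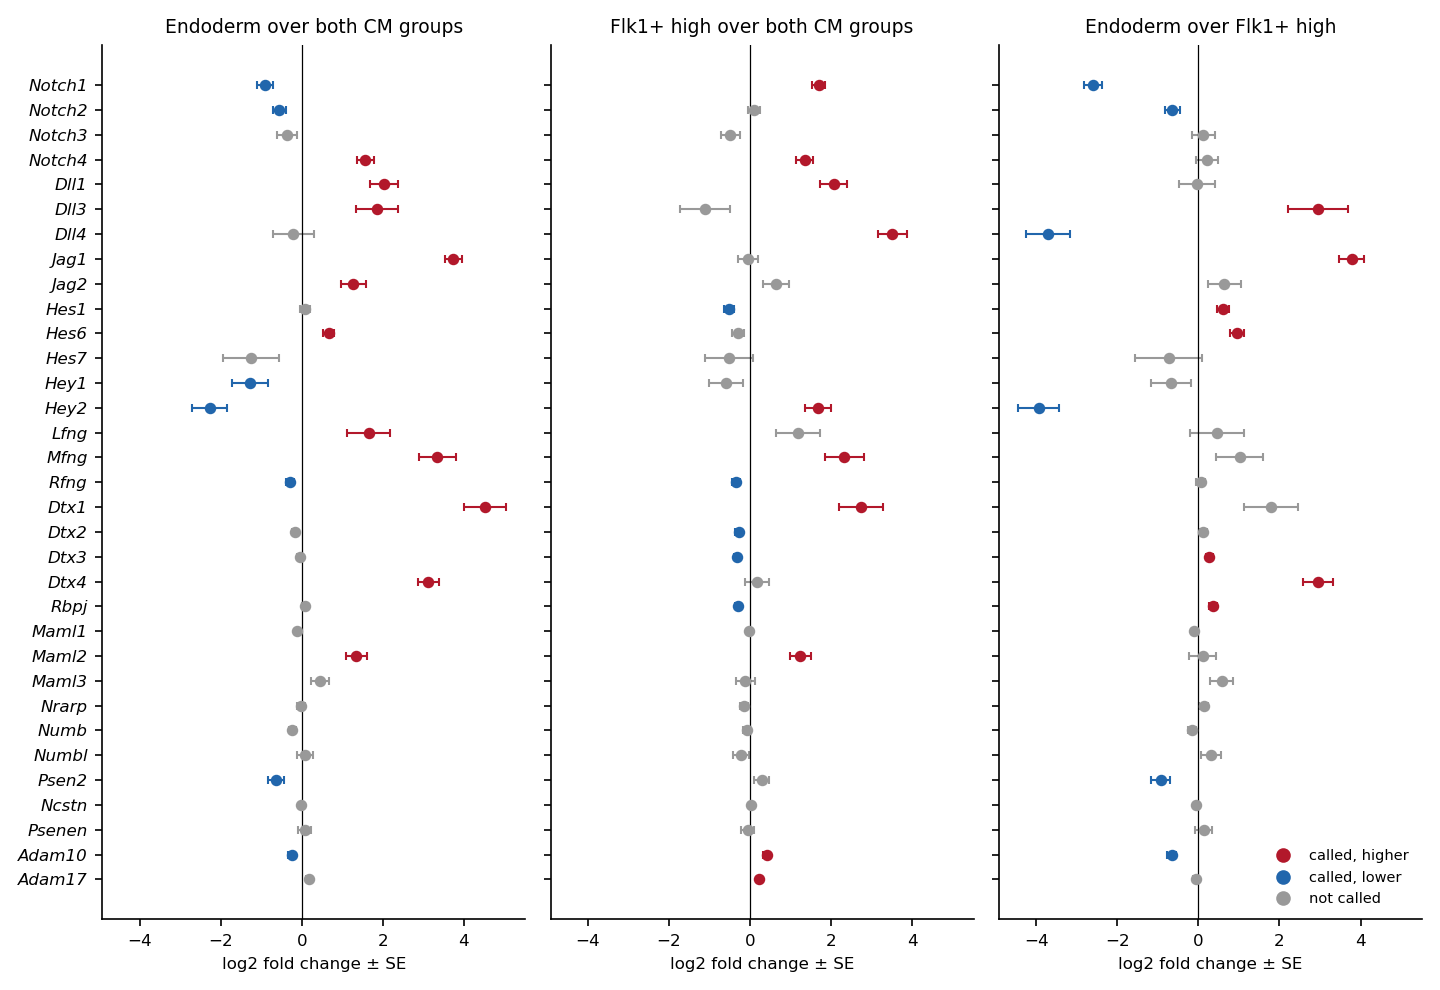
Log2 fold change with its SE (edgeR, all 10 samples in 1 model) of the 33 tested members for endoderm over both CM groups, Flk1+ high over both CM groups, and endoderm over Flk1+ high, on a common axis. Red and blue points are called higher and lower; the 3 comparisons share samples. Dtx1, Jag1, Mfng and Dtx4 lie far to the right for endoderm over CM, and Dll4, Dtx1, Mfng, Dll1, Notch1 and Hey2 for Flk1+ high over CM.

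The other 4 members were left out by the expression filter. Hes2 had 1 count in 1 library and none in the other 9, Hes3 at most 3 counts, Hes5 at most 3 counts with none in 4 libraries, and Heyl at most 6 counts. Without the filter they entered the edgeR fits and none was called, and no difference was detectable at this depth. Of the 33 others, 8 were called in none of the comparisons, namely Notch3, Hes7, Maml1, Maml3, Nrarp, Numbl, Ncstn and Psenen. Adam10 was called in all 4, with differences of no more than 0.66 on the log2 scale. Nrarp counts carry a further limit, as 79.4% of its exons lie under an antisense gene that is not counted in the files.

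A further 30 genes of the pathway (receptor glycosylation, ligand endocytosis, non-canonical ligands, turnover, corepressors and coactivators) were all tested. Between the CM groups 2 were higher and 4 lower in Foxa2+ CM. Dlk1, a non-canonical ligand that can block Notch, was at 8.48, 8.68 and 6.43 CPM in Foxa2+ CM and at 27.7, 24.1 and 23.7 CPM in Foxa2− CM (−1.68, SE 0.15, adjusted p = 0.00187, edgeR). Dner, another non-canonical ligand, was at 1.10 to 1.47 CPM against 3.61 to 4.89 CPM (−1.69, adjusted p = 0.00627), and neither gene overlapped between the groups. Neurl1a, a ubiquitin ligase that acts on ligands, was 1.81-fold lower and Eogt, which glycosylates Notch, 1.19-fold lower, while the corepressor Tle2 was 1.76-fold and the acetyltransferase Kat2b 1.69-fold higher. In endoderm against CM 6 were higher and 4 lower, led by the γ-secretase subunit Aph1c (4.37-fold higher), and in Flk1+ high against CM 3 were higher and 5 lower, led by Tle2 (8.49-fold lower). In endoderm against Flk1+ high 7 were higher and 1 lower. These counts, 6, 10, 8 and 8 of 30 (20%, 33.3%, 26.7% and 26.7%), stand beside the 6.48%, 37.2%, 25.7% and 32.6% of all genes. This list too was chosen with earlier results of these data known.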

How the data were processed

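RNAseq of 10 sorted samples (3 Foxa2+ CM, 3 Foxa2− CM, 2 endoderm, 2 Flk1+ high) was analysed, with groups and replicate numbers from the sample titles. The authors aligned reads to mm10 with STAR (2.5.0a, per the submitters' processing notes), removed duplicates with Picard and counted with HTSeq (0.6.0). The deposited values are whole-number counts per Ensembl gene, not normalized, and the strand setting of the counting is not given in the sources used here. Reads not assigned to genes were left out (72.2 to 80.5% of uniquely aligned reads were on genes). Symbols, positions and exon lengths came from GENCODE M21, matched on identifiers without version.

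Counts were filtered by edgeR's expression filter, scaled by TMM and tested with edgeR's quasi-likelihood test (edgeR 4.0.16, R 4.3.3), with Benjamini-Hochberg adjustment over all genes tested and calls at 0.05. The CM comparison used the 6 CM samples and the others all 10 samples in 1 model. SE was worked back from the F statistic, as |log2 fold change|/√F. The scripts were tested on simulated data. Alternatives were DESeq2 (1.42.0), RLE scaling, no filter, the replicate number as a block, a 2-fold limit, other sample sets and leaving out each sample. Using each CM group alone as reference was added after the data were seen. The RefSeq promoter windows were read as given (24 of 37 began transcription inside a GENCODE transcript of their gene, and none did so as reverse complement).

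Values in every sample were given for called members, up to 10 by size per comparison, and always for the receptors, Hes1, Hey1, Hey2 and Nrarp. The non-members named come from the marker lists, the list of other pathway genes, or are Foxa2, Kdr and Pdgfra. Members and lists were chosen with earlier results of these data known.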

Additional observations from a re-analysis of the deposited data

How the results depend on the processing

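The counts of called members were 8 (Foxa2+ CM against Foxa2− CM), 18 (endoderm against CM), 15 (Flk1+ high against CM) and 13 (endoderm against Flk1+ high). A 2-fold limit left 5, 12, 8 and 6. The CM count was 3 with all 10 samples in 1 model, 3 to 12 without a sample and 14 without replicate 3 of both groups. Leaving out a sample gave 10 to 20 for endoderm against CM (10 without endoderm replicate 1 and 11 without replicate 2), 12 to 16 for Flk1+ high against CM and 10 to 15 for endoderm against Flk1+ high, the lone sample being assumed to vary like the other groups. With Foxa2− CM alone as the reference, endoderm had 11 and Flk1+ high 11. DESeq2 called 10, 18, 15 and 14, which include the main calls, and RLE scaling called the same 8, 18, 15 and 13 members. Without the expression filter 10, 18, 14 and 13 were called, and fits of the compared groups alone gave 20, 14 and 10 for the last 3 comparisons. The cause of these shifts was not tested.

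Directions turned only for values that were not called. Hes1 in endoderm against CM became −0.011 with the replicate block and −0.026 without replicate 3 of both CM groups, Nrarp between the CM groups became −0.005 without those samples, and Notch2 in Flk1+ high became −0.041 against Foxa2+ CM alone. Without a sample, the CM values ranged from −0.10 to 0.24 for Notch1, −0.31 to 0.061 for Notch4 and −0.014 to 0.044 for Nrarp. In endoderm against CM, Nrarp ranged from −0.20 to 0.105. In Flk1+ high against CM, Notch2 ranged from −0.09 to 0.22 and Hey1 from −1.84 to 0.067. In endoderm against Flk1+ high, Notch3 ranged from −0.29 to 0.69, Hey1 from −1.34 to 0.54 and Nrarp from −0.036 to 0.27.

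Same-numbered CM samples correlated in their deviations from the group means at 0.447, 0.075 and 0.539 over genes. Samples numbered 1 and 3 correlated at −0.51 and −0.459 between the CM groups. Number 2 showed little of this, but deviations from a group mean cancel out within the group. The correlations are therefore not independent, and that of number 2 cannot decide whether the numbers pair the samples. As the labels do not say what a number stands for, the main fits do not pair the samples. With the replicate block, 11, 17, 14 and 14 members were called, and 2556 in place of 990 genes between the CM groups. The CM members gained with the block were Hey2 (−0.76, SE 0.13, adjusted p = 0.00179), Lfng and Maml3. Foxa2− CM replicate 2 correlated better with Foxa2+ CM replicate 1 (0.254) than with its own number, which for the same reason cannot decide the pairing. The 4 members that the expression filter left out were not called without it.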
